A study of Mus musculus with 6 samples.

Results

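Aminoacyl-tRNA synthetases are the enzymes that join each amino acid to its transfer RNA, and their genes were examined here in male gonads of mouse fetuses at E13.5 (in embryonic days). The genes were chosen by symbol, as a 1-letter amino acid code followed by ars, with or without a final 2, plus Eprs. This gave 34 of the 16862 genes in the deposited table, 18 for cytosolic and 16 for mitochondrial enzymes (symbols ending in 2). Knockout (KO) gonads were L/H-Pgds-/-, lacking both the lipocalin-type (gene Ptgds) and the hematopoietic (gene Hpgds) prostaglandin D synthase, and they were set against wild-type (WT) gonads. All were C57BL/6, with 3 libraries of each genotype, numbered 5, 7 and 8 for KO and 1, 3 and 4 for WT. The labels speak of 6 different littermates, with no word on litters, on how the alleles were made or on pooling of gonads. Values are upper-quartile normalised pseudo-counts, which are adjusted values and not reads, so the sequencing depth is unknown.

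Each synthetase recognises 1 amino acid and the transfer RNAs that carry it, except Eprs, which holds the glutamyl and the prolyl enzyme in 1 chain. Cytosolic ribosomes and mitochondrial ribosomes are mostly served by separate nuclear genes, while Gars (glycyl) and Kars (lysyl) each supply both compartments. Some of the cytosolic enzymes sit in a multi-synthetase complex held together by the scaffold proteins Aimp1, Aimp2 and Eef1e1. Synthetases fall into classes I and II, which have unrelated catalytic folds. In stressed or amino acid-starved cells, many cytosolic synthetase genes are known targets of the transcription factor Atf4.

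Ptgds had 15.2, 4.0 and 2.94 in KO gonads, against 6560, 8137 and 8712 in WT gonads (log2 change -10.15, limma adjusted p = 3.41e-06). Hpgds averaged 92.9 ± 9.32 in KO gonads and 49.2 ± 5.21 in WT gonads (SD, n = 3 each). It was higher in KO gonads (log2 change 0.9, limma adjusted p = 0.00853). With the length and GC trend given below removed, it did not pass (0.6, adjusted p = 0.092). Since its deleted part is not given, Hpgds does not check the labels. Of 40 marker genes in 10 cell type lists, 5 were higher and 4 lower in KO gonads by limma (adjusted p under 0.05). Of all genes tested, 17.3% were higher and 17.0% lower. The higher markers were Ddx4, Pdgfra, Nr2f2, Kdr and Lhx1, and the lower ones Hsd3b1, Acta2, Csf1r and Wnt4. With the length and GC trend removed, Kdr, Lhx1, Csf1r and Wnt4 still passed, beside 12.7% of all genes. The calls of Ddx4, Pdgfra, Nr2f2, Hsd3b1 and Acta2 ended (limma adjusted p from 0.0708 for Acta2 to 0.305 for Nr2f2). Sertoli cell markers were abundant in both genotypes, at a summed 55579 to 81152 in KO libraries and 70402 to 98160 in WT libraries. WT library 1 stood apart, since all 4 skeletal muscle markers were highest there, with a summed 10138 against 128 to 220 in KO libraries and 150 and 308 in the other WT libraries. KO library 7 had the highest summed germ cell markers, 32674, against 20322 and 18210 in the other KO libraries and 16854 to 24988 in WT libraries. Of these markers, Ddx4, Dazl and Dppa3 were highest in KO library 7, while Pou5f1 and Nanos2 were highest in WT library 1.

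Synthetase genes that passed the test did so in both directions, and most were lower in KO gonads. Of the 34 genes, all of which passed the filter on low values, 8 passed the test (23.5%), where 34.3% of the 15116 genes tested passed. Dars and Iars2 were higher in KO gonads, and Sars, Kars, Fars2, Sars2, Cars2 and Pars2 were lower. The log2 changes of the 34 genes ran between -0.47 and 0.42, with 15 above 0 and 19 below. Their median was -0.09, beside -0.03 over all genes tested. Values of KO and WT libraries did not overlap in 20 of the 34 genes (58.8%), KO above WT in 8 and below in 12, while this held for 50.3% of all genes (24.7% above, 25.6% below). In whole gonads, fewer cells of a type and less RNA per cell cannot be told apart.

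A trend with transcript length and GC content ran between the genotypes. After its removal from each library, 12.7% of 14486 genes passed the test (6.05% higher, 6.65% lower), and of the synthetases Dars (higher) and Sars (lower) passed. The same 2 genes passed with WT library 1 left out as well, beside 11.9% of all genes (5.8% higher, 6.12% lower). Without WT library 1 alone, 1 synthetase gene was higher and 3 were lower, beside 29.8% of all genes (15.5% higher, 14.3% lower). With values scaled to equal totals, 5 synthetase genes were higher and 1 lower, and the median of all genes moved by 0.10 to 0.07. The calls over all genes then split into 3507 higher and 1687 lower (67.5% higher), against 50.4% higher with the deposited scaling.

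**Figure D1:**
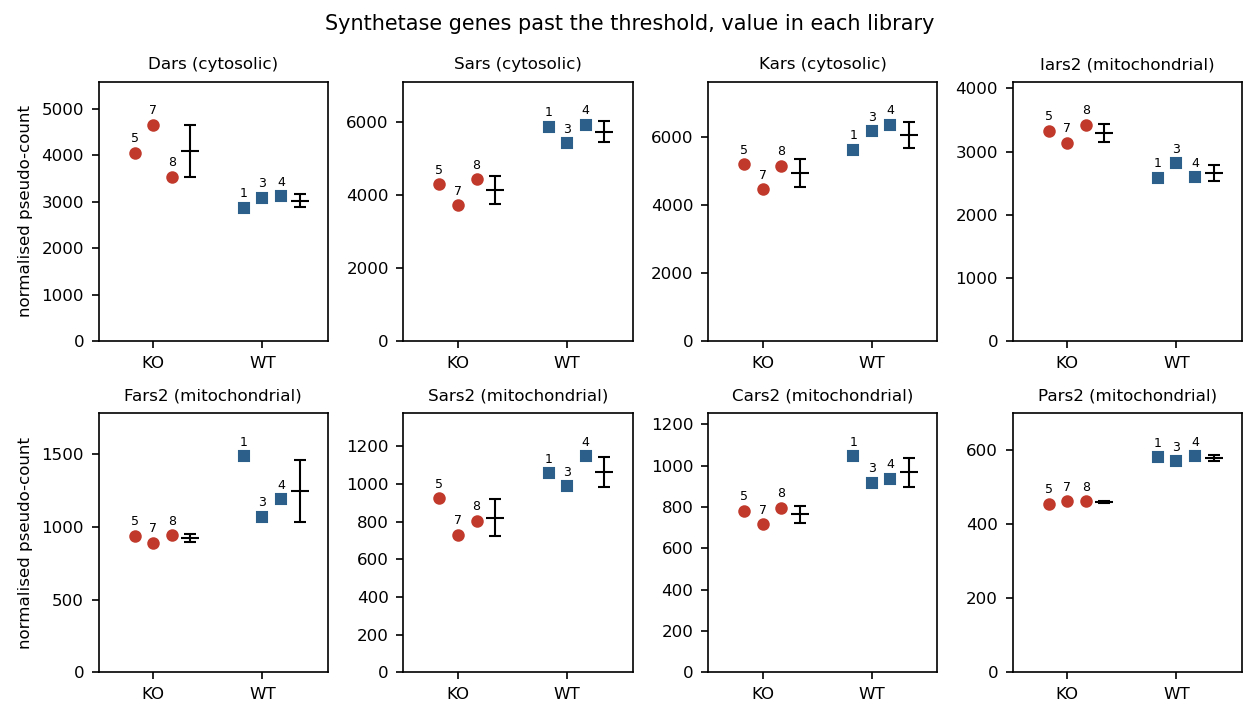
Normalised pseudo-counts of the 8 synthetase genes that passed the test, by library (red circles, KO; blue squares, WT; numbers are the labels' library numbers), with the mean and SD of 3 libraries beside the points. KO libraries lie above WT for Dars and Iars2 and below WT for the other 6 genes, without overlap.

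Among cytosolic synthetases, 1 of 18 genes was higher and 2 were lower in KO gonads (16.7%), where 34.3% of all genes passed (17.3% higher, 17.0% lower). The median log2 change was -0.09. Dars, the aspartyl-tRNA synthetase and a member of the multi-synthetase complex, had 4056, 4663 and 3542 in KO libraries 5, 7 and 8, against 2873, 3092 and 3117 in WT libraries 1, 3 and 4. The lowest KO library lay above the highest WT library, and KO library 7 was the highest of all. Dars averaged 4087 ± 561 in KO gonads and 3027 ± 134 in WT gonads (SD, n = 3 each), a 1.35-fold difference (log2 0.42, SE 0.11, limma adjusted p = 0.0122). With the length and GC trend removed, the log2 change was 0.31 (adjusted p = 0.0152). Without KO library 7, the library with the highest summed germ cell markers, it was 0.33 (adjusted p = 0.0256). The call was kept under every one of the 18 alternatives run, with a largest adjusted p of 0.0474. Dars lies on chromosome 1 from 130260284 to 130313993 in mm9.

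Sars encodes the seryl-tRNA synthetase, which also charges the selenocysteine transfer RNA with serine. It had 4288, 3713 and 4426 in KO libraries, against 5868, 5420 and 5925 in WT libraries. All KO libraries lay below all WT libraries, with library 7 the lowest. The means were 4142 ± 378 in KO gonads and 5738 ± 277 in WT gonads (SD, n = 3 each), so WT was 1.39-fold higher (log2 -0.47, SE 0.09, adjusted p = 0.00447), and removal of the trend left the change at -0.46 (adjusted p = 0.00663). This call too was kept under all 18 alternatives run, with log2 changes between -0.52 and -0.34. Sars lies on chromosome 3 from 108227782 to 108248177 in mm9.

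The promoters of Dars and Sars are shown because these were the 2 synthetase genes that kept their calls with the trend removed. Each window runs from 250 bases before to 50 after the RefSeq transcript start, on the gene's strand, in GRCm38.p6, at chr1:128417367-128417666 for Dars and chr3:108445210-108445509 for Sars. Capitals mark the letters CTTCCGG, the reverse of an ETS family site CCGGAAG, 10 bases before the Sars start.
Dars: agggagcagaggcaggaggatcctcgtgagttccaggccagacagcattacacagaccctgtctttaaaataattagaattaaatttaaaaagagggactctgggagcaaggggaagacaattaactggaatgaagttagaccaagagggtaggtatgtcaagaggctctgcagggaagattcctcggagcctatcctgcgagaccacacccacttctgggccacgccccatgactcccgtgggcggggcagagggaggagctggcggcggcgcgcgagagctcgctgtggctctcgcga
Sars: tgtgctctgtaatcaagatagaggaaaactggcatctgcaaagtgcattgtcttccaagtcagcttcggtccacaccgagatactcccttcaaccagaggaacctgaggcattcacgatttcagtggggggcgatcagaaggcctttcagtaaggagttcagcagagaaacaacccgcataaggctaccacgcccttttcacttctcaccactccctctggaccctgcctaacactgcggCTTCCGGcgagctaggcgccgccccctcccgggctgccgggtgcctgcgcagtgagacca
None of the 4 motifs searched, given further on, was found in the Dars window. Among synthetase genes with a window searched, an ETS match was in 4 of 11 cytosolic and 3 of 13 mitochondrial ones. The match was in 8.86% of 32851 RefSeq promoter windows, of which a gene can have several.

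Kars encodes the lysyl enzyme of both compartments. It had 5196, 4464 and 5153 in KO libraries, against 5617, 6154 and 6352 in WT libraries. The groups did not overlap, and the mean was 4938 ± 411 in KO gonads and 6041 ± 380 in WT gonads (SD, n = 3 each; log2 -0.29, SE 0.09, adjusted p = 0.0348). The Kars call ended with the trend removed (log2 -0.11, adjusted p = 0.368), with scaling to equal totals or quantile normalisation (adjusted p = 0.141 and 0.172), with scaling by the median of ratios (0.0575), with no mean-dependent prior (0.0819), and without WT library 4 (0.127), WT library 3 (0.0803), KO library 5 (0.0622) or KO library 7 (0.0755). In mm9 the gene lies on chromosome 8 from 114517340 to 114535205.

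The other 15 cytosolic genes did not pass the test. Yars (tyrosyl) came nearest, with 2102, 1980 and 2362 in KO libraries against 2579, 2465 and 2626 in WT libraries (log2 -0.25, adjusted p = 0.0513). Eprs had 5285, 5531 and 5303 in KO libraries, against 4582, 4861 and 4560 in WT libraries (log2 0.20, adjusted p = 0.0686). Iars, the cytosolic isoleucyl enzyme, had a log2 change of 0.20 (adjusted p = 0.0822). In each of these 3 genes the KO and WT libraries did not overlap. With values scaled to equal totals, Eprs (log2 0.31, adjusted p = 0.0164) and Iars (adjusted p = 0.0188) passed. The remaining 12 genes had log2 changes between -0.20 for Wars (tryptophanyl) and 0.08 for Nars (asparaginyl). The 18 summed values lay between 66930 and 68093 in KO libraries and between 70399 and 72646 in WT libraries, which did not overlap. The sums of all genes differed in the same direction, and as a share of its library's sum the cytosolic total was 0.308% to 0.313% in KO libraries and 0.302% to 0.308% in WT libraries, so the direction turned.

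**Figure D2:**
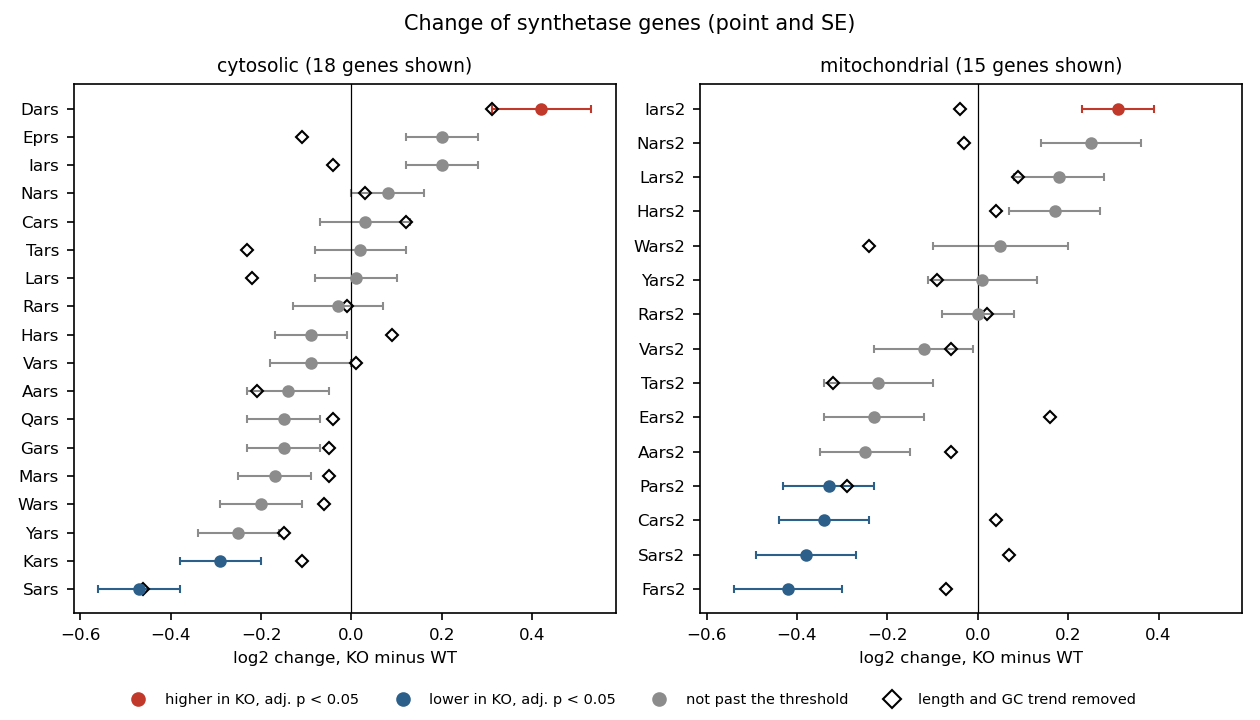
Log2 change, KO over WT, of synthetase genes, 18 cytosolic (left) and 15 mitochondrial (right), with values as deposited (filled points with SE; red, higher; blue, lower; grey, not past the threshold) and with the length and GC trend removed (open diamonds). As deposited the changes run between -0.47 for Sars and 0.42 for Dars, and of the 8 called genes Sars, Pars2 and Dars stay farthest from 0 when the trend is removed.

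Among mitochondrial synthetases, 1 of 16 genes was higher and 4 were lower in KO gonads (31.2%, near the 34.3% of all genes), and the median log2 change was -0.06. Iars2, the mitochondrial isoleucyl enzyme, had 3328, 3143 and 3425 in KO libraries against 2587, 2812 and 2597 in WT libraries. The groups did not overlap (log2 0.31, SE 0.08, adjusted p = 0.0162). With the trend removed the log2 change was -0.04 (adjusted p = 0.725), and the call also ended without WT library 1 (0.0574), WT library 4 (0.0681) or KO library 5 (0.0615). Iars2 spans 187110626 to 187153280 of chromosome 1 in mm9, and Eprs lies 33.7 kb away, with 1 other gene of the table, Bpnt1, between them.

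Fars2, the mitochondrial phenylalanyl enzyme, had 937, 891 and 943 in KO libraries, against 1483, 1068 and 1187 in WT libraries. WT library 1, the library with the high muscle markers, was far above the other 2 WT libraries. The log2 change was -0.42 (SE 0.12, adjusted p = 0.0235), and without that library it was -0.29 (adjusted p = 0.076). Removal of the trend brought it to -0.07 (adjusted p = 0.723), and the call also ended without WT library 4 (0.0579), KO library 5 (0.0646) or KO library 7 (0.058).

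Sars2 (mitochondrial seryl) had 925, 731 and 805 in KO libraries, against 1056, 986 and 1146 in WT libraries (log2 -0.38, SE 0.11, adjusted p = 0.0262). Cars2 (mitochondrial cysteinyl) had 782, 716 and 796 in KO libraries, against 1046, 918 and 938 in WT libraries (log2 -0.34, SE 0.10, adjusted p = 0.024). Neither gene had overlapping groups, yet both calls ended with the trend removed, where the log2 changes were 0.07 for Sars2 (adjusted p = 0.646) and 0.04 for Cars2 (adjusted p = 0.809). The Sars2 call also ended without WT library 4 (0.108), KO library 7 (0.0685) or KO library 8 (0.0632). The Cars2 call ended without WT library 1 (0.0871), WT library 4 (0.0614), KO library 5 (0.0633) or KO library 7 (0.0552).

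Pars2, the mitochondrial prolyl enzyme, varied least of the called genes. It had 456, 462 and 463 in KO libraries, against 582, 570 and 584 in WT libraries. Both groups were tight and well apart (log2 -0.33, SE 0.10, adjusted p = 0.0279). The SE is limma's, which borrows the spread of other genes of like level. With the trend removed the log2 change was -0.29 (adjusted p = 0.0538), and leaving out any 1 library except KO library 7 gave adjusted p-values from 0.0532 to 0.0904. In mm9, the 4 lower mitochondrial genes are Fars2 on chromosome 13 from 36209280 to 36629462, Sars2 on chromosome 7 from 29526987 to 29538898, Cars2 on chromosome 8 from 11514017 to 11550771 and Pars2 on chromosome 4 from 106323674 to 106327887.

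With values scaled to equal totals, 0 of these 4 genes passed by limma, at adjusted p = 0.0636 (Fars2), 0.0797 (Sars2), 0.0934 (Cars2) and 0.113 (Pars2). With no mean-dependent prior, Fars2 (0.065) and Sars2 (0.0617) did not pass.

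The other 11 mitochondrial genes did not pass the test, with log2 changes between -0.25 for Aars2 (alanyl, adjusted p = 0.0776) and 0.25 for Nars2 (asparaginyl, adjusted p = 0.108). With the trend removed, 0 of the 16 mitochondrial genes passed by limma at an adjusted p under 0.05, beside 12.7% of all genes. WT library 1 was the highest of the WT libraries in 8 of the 16 genes, beside 35.7% of all genes. Without it, 0 mitochondrial genes were higher and 1 was lower (6.25%), beside 29.8% of all genes. The loss was not particular to that library. The calls of Iars2, Fars2, Sars2, Cars2 and Pars2 all ended without WT library 4, where 3032 of 15116 genes passed. The muscle markers summed to 308 in WT library 4 and 10138 in WT library 1. Whether the high muscle markers of WT library 1 had a part in the lost calls was not tested.

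Cytosolic and mitochondrial genes each held 1 higher gene, and the difference between the compartments was not tested. KO library 7 was the farthest from the KO median in 21 of the 34 genes (61.8%), against 47.6% of all genes, and the lowest KO library in 19 (55.9%), against 40.5% of all genes.

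The genes that passed the test differed in base composition. The 6 lower genes had a median transcript GC content of 54.4%, between 51.4% and 60.1%, while the 2 higher genes had 41.2% (Dars) and 47.2% (Iars2). The median was 49.3% for the 26 genes that did not pass. The median transcript length was 2157 nt for the lower genes, 3823 nt for the higher genes and 3282 nt for the rest. Across the 34 genes, the log2 change went with GC content (Pearson r = -0.69) and with log2 length (r = 0.40), beside r = -0.47 and 0.54 across 14486 genes. The relation to length was found in the mitochondrial genes (r = 0.67) and was weak in the cytosolic ones (r = 0.09). These correlations run over genes that share 6 libraries and are descriptions. With the trend removed, r was 0.03 with GC content and -0.44 with length among the 34 genes, and 0.34 with GC content among the mitochondrial ones, so a relation to length of the opposite sign was left.

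**Figure D3:**
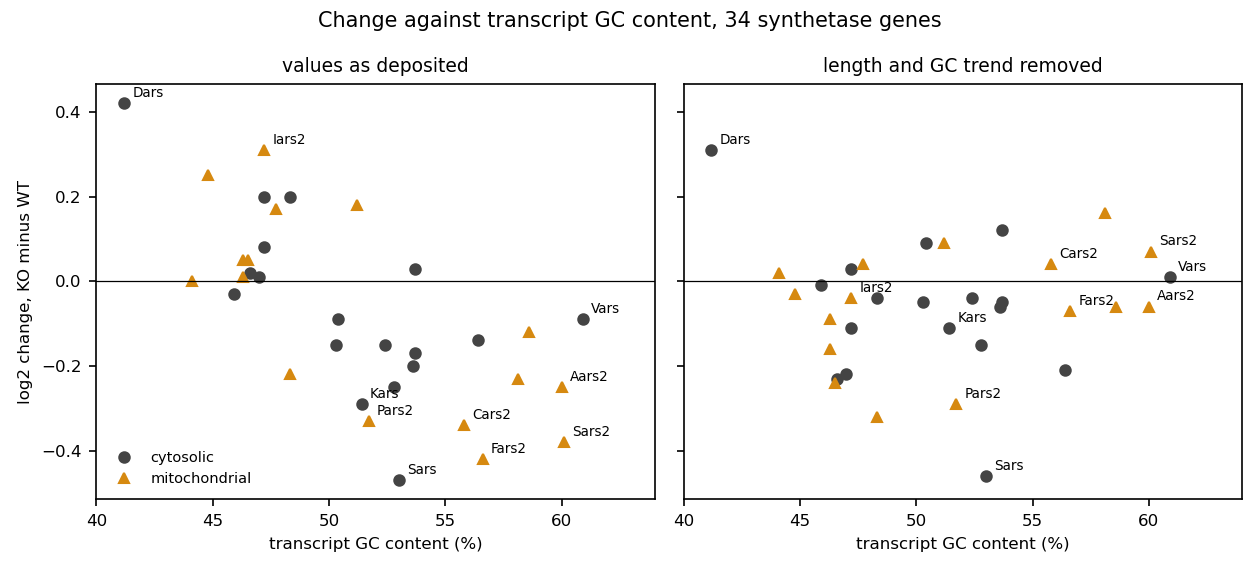
Log2 change, KO over WT, of the 34 synthetase genes against transcript GC content in percent, for cytosolic (circles) and mitochondrial (triangles) genes, as deposited (left) and with the trend removed (right). As deposited, Dars, with the lowest GC content (41.2%), had the highest change, and the GC-rich genes Sars2 (60.1%) and Fars2 (56.6%) had changes of -0.38 and -0.42, while Vars, with the highest GC content (60.9%), had -0.09 and Vars2 (58.6%) had -0.12.

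By length-corrected level, with values divided by transcript length, cytosolic genes were more abundant than mitochondrial ones in every library. The cytosolic median was 1139, 1128 and 1128 per kb in KO libraries and 1114, 1107 and 1106 per kb in WT libraries. The mitochondrial median was 369, 380 and 352 per kb in KO libraries and 355, 355 and 341 per kb in WT libraries. The highest cytosolic genes were Kars, at 2256 ± 188 per kb in KO gonads and 2760 ± 174 per kb in WT gonads, Qars (glutaminyl; 1913 ± 129 and 2114 ± 67.5) and Gars (1885 ± 84.5 and 2091 ± 127) (SD, n = 3 each). Qars and Gars did not differ beyond their spread. Cars (cysteinyl) was the lowest, at 460 ± 42.3 per kb in KO gonads and 448 ± 30.2 per kb in WT gonads. Among mitochondrial genes, Tars2 (threonyl) was at 589 ± 74.6 per kb in KO gonads and 686 ± 76.6 per kb in WT gonads, Rars2 (arginyl) at 589 ± 11.2 and 589 ± 15.4, and Iars2 at 603 ± 26.1 and 487 ± 23.2. Their ranges met in KO gonads. Wars2 (tryptophanyl) was the lowest, at 83.2 ± 10.8 per kb in KO gonads and 80.4 ± 9.83 per kb in WT gonads.

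For 12 amino acids the cytosolic gene was compared with the mitochondrial one. The cytosolic gene had the higher level per kb in all 6 libraries for 9 of these pairs, or for 8 with the length of the principal transcript in place of the longest. The ratio was highest for Wars over Wars2, at 9.12 ± 0.438 in KO gonads and 10.9 ± 1.29 in WT gonads (SD, n = 3 each), or 14.2 in KO gonads and 16.9 in WT gonads with principal-transcript lengths. Iars and Iars2 were near parity, at a ratio of 0.912 ± 0.0556 in KO gonads and 0.981 ± 0.0316 in WT gonads. Cars over Cars2 was 1.18, 1.09 and 1.16 in KO libraries, against 0.877, 0.879 and 0.89 in WT libraries, so the order of the 2 genes differed between genotypes with these lengths. The groups did not overlap, and the log2 difference of the ratio was 0.37 (exact permutation test, two-sided, p = 0.1, the smallest that 3 against 3 libraries allow; adjusted over the 12 pairs, 0.3), while Cars itself had a log2 change of 0.03 (adjusted p = 0.814). Of the 12 ratios, 2 lay higher in KO gonads without overlap (Cars, Aars) and 2 lower (Hars, Wars). With the length and GC trend removed, the log2 difference of the ratio was 0.08 for Cars, against 0.37 as deposited, and it turned for Aars (-0.16, as deposited 0.11), Hars (0.05, as deposited -0.27) and Wars (0.18, as deposited -0.25). For Sars over Sars2 it was -0.53, as deposited -0.10. Hars and Hars2 are neighbours on chromosome 18, with 74 bases between them in mm9.

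**Figure D4:**
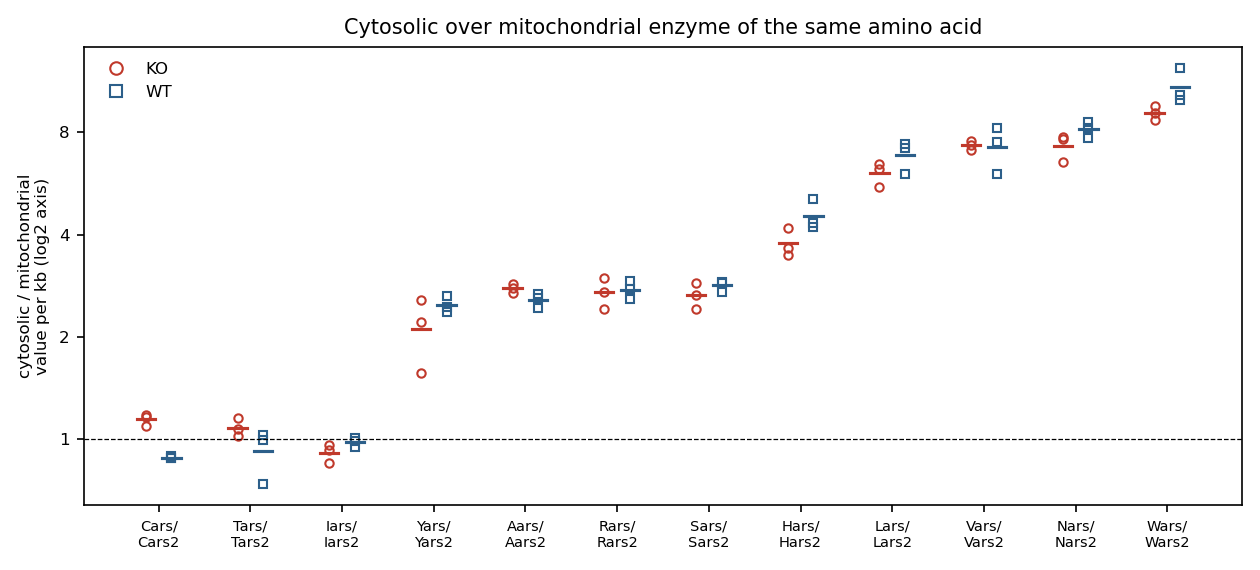
Ratio of the cytosolic over the mitochondrial synthetase gene, per kb of transcript, in each library (red circles, KO; blue squares, WT; bars, means; log axis) for 12 amino acids. Cars over Cars2 lies at 1.09 to 1.18 in KO libraries and 0.877 to 0.89 in WT libraries, on either side of 1, a log2 difference of 0.37 that was 0.08 with the length and GC trend removed.

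Split by structural class, 1 of 18 class I genes was higher (Iars2) and 1 was lower (Cars2). Of 16 class II genes, 1 was higher (Dars) and 5 were lower (Sars, Kars, Fars2, Sars2, Pars2), which is 37.5% against 11.1% in class I and 34.3% of all genes. With the trend removed, 1 class II gene was higher and 1 lower (12.5%), and 0 class I genes passed, beside 12.7% of all genes. Eprs, which holds a domain of each class, was counted in class I. The difference between the classes was not tested. Of the 8 enzymes of the multi-synthetase complex, Dars was higher and Kars lower (25.0%). Of the 10 cytosolic enzymes outside it, Sars was lower. Both lay below the 34.3% of all genes.

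Genes of proteins that work with the synthetases were looked at next. Of 13 tested, 0 were higher and 5 were lower by limma at an adjusted p under 0.05 (38.5%, near the 34.3% of all genes). After removal of the trend, 2 were lower (15.4%, beside 12.7% of all genes). Aimp2, a scaffold that holds Dars and Kars in the complex, had 1830, 1685 and 1921 in KO libraries, against 2984, 2575 and 2853 in WT libraries. The groups were wide apart (log2 -0.63, SE 0.09, adjusted p = 0.00185), but the call ended with the trend removed (log2 -0.16, adjusted p = 0.134). The other scaffolds did not pass, with log2 changes of -0.29 for Aimp1 (adjusted p = 0.15) and -0.06 for Eef1e1 (adjusted p = 0.81). Farsa and Farsb, the 2 subunits of the cytosolic phenylalanyl enzyme, were both lower. Farsb had 3207, 2905 and 3231 in KO libraries, against 4028, 3609 and 4134 in WT libraries (log2 -0.33, adjusted p = 0.0167; -0.29 and 0.0448 with the trend removed). Farsa had 2683, 2559 and 2704 in KO libraries, against 3446, 2955 and 3308 in WT libraries (log2 -0.29, adjusted p = 0.0279), and removal of the trend brought it to 0.12 (adjusted p = 0.263). Both calls ended without WT library 4, at adjusted p = 0.0765 for Farsb and 0.0983 for Farsa, and that of Farsa also without WT library 1 (0.109), KO library 5 (0.0761) or KO library 7 (0.0538). Neither passed with equal totals (0.062 for Farsb, 0.119 for Farsa). Pet112l, the GatB subunit that helps mitochondria make glutaminyl-tRNA without a glutaminyl synthetase of their own, had 882, 777 and 854 in KO libraries, against 1191, 1029 and 1096 in WT libraries. Its fall was kept with the trend removed (log2 -0.40, adjusted p = 0.012; -0.48 and 0.0102) and in all 18 alternatives run. Aarsd1, which removes wrong amino acids from alanine transfer RNA, had a log2 change of -0.44 (adjusted p = 0.0137; without WT library 4, 0.0622), and of 0.01 with the trend removed (adjusted p = 0.929).

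Sites that Atf4 and its C/EBP partners can bind were looked for in the promoters, since many synthetase genes are among its targets. RefSeq windows of 24 of the 34 genes were searched. Among those not searched were Cars, Hars, Hars2, Lars, Nars, Pars2, Rars, Vars and Wars. The motif counts of synthetase genes leave out the genes not searched. Such a gene is not shown to lack a RefSeq window or a motif. The motif TGATGNAA, searched on both strands (reverse TTNCATCA), was in 5 of 11 cytosolic promoters, those of Aars, Gars, Iars, Tars and Yars, and in 0 of 13 mitochondrial promoters, beside 3.97% of all windows. The stretches are given below on the strand of each gene, 48 bases around each match, with the match in capitals.
Aars, chr8:111033710-111033757, 112 bases before the start: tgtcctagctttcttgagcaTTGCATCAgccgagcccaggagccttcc
Aars, chr8:111033831-111033878, 9 bases after the start: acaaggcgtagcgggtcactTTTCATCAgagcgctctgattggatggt
Gars, chr6:55037951-55037998, 30 bases before the start: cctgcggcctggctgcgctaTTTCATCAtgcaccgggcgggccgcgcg
Iars, chr13:49682117-49682164, 7 bases after the start: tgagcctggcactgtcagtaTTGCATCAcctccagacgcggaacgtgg
Tars, chr15:11399646-11399693, 15 bases before the start: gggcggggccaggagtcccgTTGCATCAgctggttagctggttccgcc
Yars, chr4:129189886-129189933, 3 bases after the start: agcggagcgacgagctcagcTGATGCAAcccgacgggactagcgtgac
Of these 5 genes, 0 passed the test, and their log2 changes were -0.14 (Aars), -0.15 (Gars), 0.20 (Iars), 0.02 (Tars) and -0.25 (Yars). The E-box CACGTG was in 3 cytosolic promoters (Aars, Iars, Tars) and in that of Ears2, beside 7.15% of all windows. The palindromic Nrf1 site was in 0 of the 24 and in 0.971% of all windows. A synthetase gene was counted if any of its windows matched, while the shares of all windows count each window, so these are unlike measures. A match is a run of letters in these windows, and binding was not measured.

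Other genes of the amino acid response, the program that Atf4 drives, moved both ways. Of 35 tested, 4 were higher and 9 lower (37.1%, near the 34.3% of all genes), with a median log2 change of -0.16. After removal of the trend, 1 was higher and 3 were lower (11.4%, beside 12.7% of all genes), with a median of -0.02. Atf4 itself had 5155, 4894 and 4849 in KO libraries, against 5834, 5317 and 5802 in WT libraries (log2 -0.19, adjusted p = 0.104), and Asns, the asparagine synthetase and a classic target, had a log2 change of -0.04 (adjusted p = 0.841). Both genes were chosen after their values were seen. Slc38a2, a transporter of neutral amino acids, had 5308, 5819 and 5764 in KO libraries, against 3590, 4578 and 3833 in WT libraries (log2 0.50, adjusted p = 0.00538; with the trend removed 0.11, adjusted p = 0.383). Sesn2, a leucine sensor, was higher (log2 0.52, adjusted p = 0.027; with the trend removed 0.68, adjusted p = 0.0147), but the call ended without WT library 1 (0.0652), WT library 4 (0.082), KO library 5 (0.0884) or KO library 8 (0.0804). The Slc7a3 call, a cationic amino acid transporter at log2 0.66 (adjusted p = 0.0479), ended with each of the 6 libraries left out in turn (adjusted p from 0.0532 to 0.147). Eif4ebp1, a brake on cap-dependent translation, had 2662, 2343 and 2728 in KO libraries, against 4147, 3551 and 4322 in WT libraries. Its fall was kept in all 18 alternatives run (log2 -0.63, adjusted p = 0.00222). Nupr1 (log2 -0.81, adjusted p = 0.0202) and Atf5 (log2 -0.62, adjusted p = 0.00224), both regulators of stress responses, were lower, and neither passed with the trend removed (-0.22, adjusted p = 0.54, and -0.16, adjusted p = 0.177). The Nupr1 call also ended without WT library 4 (0.078), KO library 7 (0.0551) or KO library 8 (0.0643).

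Of the 4 kinases that phosphorylate eIF2 and the Gcn2 activator Gcn1l1, 4 of 5 genes were higher and 0 lower, where 17.3% of all genes were higher. Once the trend was removed, 1 was higher and 1 lower, beside 12.7% of all genes that passed. The lower one was Eif2ak1, the heme-regulated kinase, at log2 -0.37 (adjusted p = 0.0265), against -0.17 (adjusted p = 0.189) as deposited. Gcn1l1 had 2174, 2254 and 2565 in KO libraries, against 1500, 1818 and 1362 in WT libraries (log2 0.59, adjusted p = 0.00481; with the trend removed 0.46, adjusted p = 0.00845), and its call was kept in all 18 alternatives run. Eif2ak2 (PKR) was at log2 0.59 (adjusted p = 0.0165) and Eif2ak4 (Gcn2, which senses uncharged transfer RNA) at 0.38 (adjusted p = 0.0192). Neither passed with the trend removed, at adjusted p = 0.339 for Eif2ak2 and 0.373 for Eif2ak4. The Eif2ak2 call also ended without KO library 5 (0.0857), and that of Eif2ak4 without WT library 4 (0.0847), KO library 5 (0.0652) or KO library 8 (0.0545).

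Charged transfer RNAs are taken to the ribosome by elongation factors. Of 5 cytosolic factor genes, 3 were lower (17.0% of all genes were), or 1 with the trend removed (6.65% of all genes were). The 3 are subunits of the exchange factor that recharges eEF1A with GTP. Eef1g had 4899, 3878 and 4594 in KO libraries, against 6523, 5894 and 6929 in WT libraries (log2 -0.54, adjusted p = 0.0047; with the trend removed -0.27, adjusted p = 0.0523). Eef1d was at log2 -0.52 (adjusted p = 0.00779; 0.0554 with the trend removed) and Eef1b2 at -0.39 (adjusted p = 0.026; 0.0361 with the trend removed). The Eef1b2 call ended without WT library 1 (0.063), WT library 4 (0.101), KO library 5 (0.0737) or KO library 8 (0.083). It also ended with equal totals (0.0671), with quantile normalisation (0.104), and with the trend removed and WT library 1 left out. Of 9 mitochondrial factor genes, 1 was higher and 4 were lower (55.6%, beside 34.3% of all genes). Once the trend was removed, 0 were higher and 1 was lower (11.1%, beside 12.7%). Mtif3, a mitochondrial initiation factor, had 653, 632 and 674 in KO libraries, against 813, 887 and 930 in WT libraries. Its fall was kept in all 18 alternatives run (log2 -0.42, adjusted p = 0.00895; with the trend removed -0.56, adjusted p = 0.00637). The other initiation factor, Mtif2, was higher (log2 0.44, adjusted p = 0.0111; with the trend removed adjusted p = 0.0798). Tufm, the mitochondrial elongation factor that delivers charged transfer RNAs, was lower at log2 -0.41 (adjusted p = 0.0303), and at -0.00 after removal of the trend (adjusted p = 0.988). Mrrf, which recycles mitochondrial ribosomes, was at log2 -0.37 (adjusted p = 0.0233; 0.0551 with the trend removed). Calls ended without WT library 4 or KO library 5 for Mtif2 (0.0542 and 0.0554) and Mrrf (0.0876 and 0.104), and for Tufm without these (0.119 and 0.09), WT library 1 (0.0626) or KO library 7 (0.0831). With equal totals, Mrrf (0.0765) and Tufm (0.0776) did not pass, nor did Tufm with no mean-dependent prior (0.0606).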

How the data were processed

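RNA was sequenced from 6 gonad libraries (3 KO, 3 WT), prepared with the Illumina TruSeq RNA kit per the labels' protocols. The deposited values are a signal per gene, upper-quartile normalised pseudo-counts made by the authors. Per the submitters' processing notes, CASAVA 1.8.2, edgeR 2.6.2 and the build mm9 were used; the sources used here do not give their roles or whether counting used strand. Values summed to between 21657342 and 21846849 in KO libraries and between 22881124 and 23734462 in WT libraries, sums that follow from the normalisation. Depth is unknown and no counting interval is given. Columns matched to no library numbered 0, and no 2 libraries were identical.

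Values were analysed as log2(value + 1), which understates changes of low genes, with limma 3.58.1 (R 4.3.3), two-sided, with a mean-dependent prior and Benjamini-Hochberg adjustment over 15116 genes with at least 10 in at least 3 libraries, at a threshold of 0.05. P-values measure the spread between libraries. Alternatives were pseudocounts of 0.5, 5 and 10, other filters, scalings and priors, each library left out, and removal, per library, of the trend of log2 values on length and GC content of transcripts (natural splines, 4 degrees of freedom each; longest protein-coding transcript of GENCODE vM21; 14486 genes, 95.8%), alone and without WT library 1. Principal-transcript lengths and trend removal for the pair ratios, and the share of the library sum, were added after seeing the data. Gene coordinates are the table's, on mm9; promoters are RefSeq's, on GRCm38.p6. Figures used matplotlib 3.10.9. The members, gene lists and named genes were chosen with earlier results of these data known. Values in each library were given for every synthetase gene past the threshold. The rule for named genes also took in their partners and the 3 highest and the lowest per kb in each compartment. From each other list it took up to 3 genes past the threshold in each direction. Some of these further genes are given by means or by log2 change and adjusted p alone. A gene that this rule names is not reported here. The test was tried on simulated data in which few genes were changed. It recovered 71% of 2-fold and 31% of 1.5-fold changes, with 3 false calls among 105. Far more genes passed in the real data, so recovery there can differ. The largest synthetase difference was 1.39-fold (Sars), so a synthetase gene that did not pass is not shown to be unchanged.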

Additional observations from a re-analysis of the deposited data

How the results depend on the processing

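The Dars, Sars, Pet112l, Eif4ebp1, Gcn1l1 and Mtif3 calls kept their direction and their side of the threshold under all 18 alternatives run. With scaling by the median of ratios, 1 cytosolic gene was lower, and 5079 of 15119 genes tested passed. With equal totals, 5 synthetase genes were higher and 1 lower (cytosolic 3 and 1, mitochondrial 2 and 0), with medians of 0.01 and 0.04. Of all genes, 5194 of 15114 then passed. With quantile normalisation 4 synthetase genes were higher (cytosolic 3 higher and 1 lower, median 0.01), and 5077 of 15116 genes passed. With no mean-dependent prior 3 synthetase genes were lower (cytosolic 1, mitochondrial 2), and 4074 of 15116 genes passed, against 5180 with the prior. With the length and GC trend removed, 1840 of all genes passed, 1 synthetase was higher and 1 lower (cytosolic lower 1, mitochondrial 0 and 0). Directions turned for Iars2 (-0.04), Sars2 (0.07), Cars2 (0.04), Iars (-0.04), Eprs (-0.11), Farsa (0.12) and Aarsd1 (0.01). With WT library 1 left out as well, 1726 genes passed, the synthetase counts were again 1 and 1 (cytosolic lower 1, mitochondrial 0 and 0), the mitochondrial median was 0.02, and the turned values were Iars2 -0.04, Fars2 0.05, Sars2 0.06, Cars2 0.08, Iars -0.04, Eprs -0.10, Farsa 0.15, Aarsd1 0.01 and Tufm 0.01. The cause was not tested.

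Leaving out 1 library at a time, 3032 (without WT library 4) to 5041 genes passed, 1 to 2 synthetases were higher and 1 to 5 lower. Cytosolic genes were higher in 1 to 1 and lower in 1 to 3, mitochondrial genes higher in 0 to 1 and lower in 0 to 4, and medians ran from -0.12 to -0.05 (cytosolic) and from -0.11 to -0.01 (mitochondrial). Cars turned to -0.01 without WT library 3, -0.00 without KO library 5 and -0.01 without KO library 8 (up to 0.11 without KO library 7). Yars passed with a filter at 50 (adjusted p = 0.0454) and without KO library 8 (0.0265). Depth is unknown, so its limit on these values is too. No paired analysis was possible because the libraries of the 2 genotypes share no replicate number.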
